A study of Rattus norvegicus with 12 samples.

Results

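Secreted and membrane-bound metalloproteinases and their inhibitors were followed in rat smooth muscle cells: 4 ADAMTS proteases (Adamts1, Adamts4, Adamts5 and Adamts9), 3 matrix metalloproteinases (Mmp2, Mmp3 and Mmp14) and 3 tissue inhibitors of metalloproteinases (Timp1, Timp2 and Timp3). All probe sets whose array annotation gives exactly 1 symbol, that of one of these 10 genes, were taken. There were 18 such probe sets of 31099 on the array, which has 14217 genes with a probe set of a single symbol. Of the 10 genes, 9 had a probe set bright enough to test, and Mmp3 had none.

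Metalloproteinases use a zinc ion to cut proteins outside the cell. Matrix metalloproteinases degrade collagens, gelatin and other matrix proteins, and ADAMTS proteases cut large proteoglycans such as versican and aggrecan, among other substrates. TIMP proteins bind to the active site of these enzymes and block it, and in the vessel wall the balance of enzymes and inhibitors is known for its part in matrix turnover and in the migration of smooth muscle cells.

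RNA came from primary cultures of aortic smooth muscle cells of newborn rats, held overnight without serum. The 12 arrays made 6 groups of 2, that is unstimulated and stimulated cells in each of 3 experiments: 2 U/ml thrombin, 25 µM TRAP (a peptide that activates the thrombin receptor), or 25 µM TRAP following 24 h in 200 ng/ml pertussis toxin (PTX). Stimulation lasted 120 min in each. PTX blocks receptor signalling through Gi proteins. No dose of an agent is given for the unstimulated cells. Whether those of the PTX experiment were in PTX is not stated, so a change there can include what the toxin does by itself. Nothing in the labels shows that replicates were separate cultures, so the p-values cover the spread between these samples alone, which may be technical.

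Each value is a probe set's signal, a linear intensity that the authors scaled to a common level on every array. The mean of an array without its 2% lowest and highest values was close to 200 on all 12 arrays. Signals of different probe sets cannot be ranked against each other, so levels are compared only within a probe set. A change is given as the difference of log2(signal + 16) with its standard error (SE), which understates the change of dim genes, and a call is an adjusted p under 0.05 from limma with Benjamini-Hochberg adjustment over 18625 probe sets. A gene is represented by its brightest probe set. All 8 smooth muscle markers listed were bright enough to test, with Acta2 at a mean signal of 7221. Some had low signals, with Des at 15.8 to 52.9, Myh11 at 15.8 to 65.8, Mylk at 44.5 to 144.1 and Myocd at 18 to 660.3. Of 6 endothelial markers 5 were too dim to test, with Pecam1 at most at 7.5, and Tek was at 20.1 to 85.7. Of 8 leukocyte markers 6 were too dim, with Ptprc at most at 12, while Cd14 was at 296.9 to 578.4 and Csf1r at 10.2 to 63.2. Of 7 markers of adventitial fibroblasts 5 could be tested, from Mfap5 at 4658.4 to 6222 down to Pi16 at 13.3 to 45.2, and Dpt and Ly6c were too dim. Of 4 markers of Schwann and neural cells, Cnp and Mbp could be tested.

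Some arrays stood apart from their labelled groups. Across the 8 arrays of the TRAP experiments, the acute-phase gene Saa3 was at 15.9 to 22.8 on both basal arrays of the TRAP experiment, the second TRAP array and the first array of TRAP after PTX, and at 222.5 to 420.9 on the other 4. TRAP replicate 1 thus went with the basal arrays of the PTX experiment, and TRAP after PTX replicate 1 with those of the TRAP experiment. These 2 are called the discordant arrays here. Whether their labels were exchanged cannot be settled from the labels, and values of TRAP, of TRAP after PTX and of the PTX effect hold for the arrays as labelled. The 2 sets of 4, called low-Saa3 and high-Saa3, come from the measured values, and the study did not define them. What separates them was not tested. Values without the discordant arrays, and with the set as a block in the model, stand beside the results that move with them. Both settings were chosen from these same arrays, so their p-values are not independent support. Without the discordant arrays, TRAP and TRAP after PTX each keep 1 stimulated array, whose spread is taken from the other groups. An adjusted p from that setting does not cover the spread between stimulated replicates.

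Of the 9 tested members, Adamts1 and Timp1 rose and the others passed no test of a response. With thrombin 2 of 9 rose and 0 fell, where 4.74% of all tested probe sets were called (2.63% higher and 2.1% lower), and the median change was 0.15 on the log2 scale against -0.04 over all probe sets. With TRAP again 2 of 9 rose and 0 fell, where 3.9% of all were called (1.84% higher and 2.07% lower), with a median of 0.23. With TRAP after PTX 1 of 9 rose and 0 fell, where 2.71% of all were called (1.68% higher and 1.03% lower), with a median of -0.02. The mean of the 3 responses called 2 of 9, both higher, where 13.2% of all were called (5.55% higher and 7.62% lower).

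Stimulated arrays did not overlap their basal arrays in 6 of 9 members with thrombin, where 47.4% of all probe sets did not, in 7 of 9 with TRAP (48.6% of all) and in 3 of 9 with TRAP after PTX (45.2% of all). None of the 9 passed limma's test of the thrombin response against the TRAP response, where 0.532% of all were called, and 1 of 9 (Adamts1) had an unadjusted p under 0.05, where 10.1% of all did, so that this share is near the background. None passed the test of the PTX effect on the TRAP response, where 0.129% of all were called, and 2 of 9 (Mmp2 and Timp1) had an unadjusted p under 0.05, where 8.28% of all did.

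**Figure D1:**
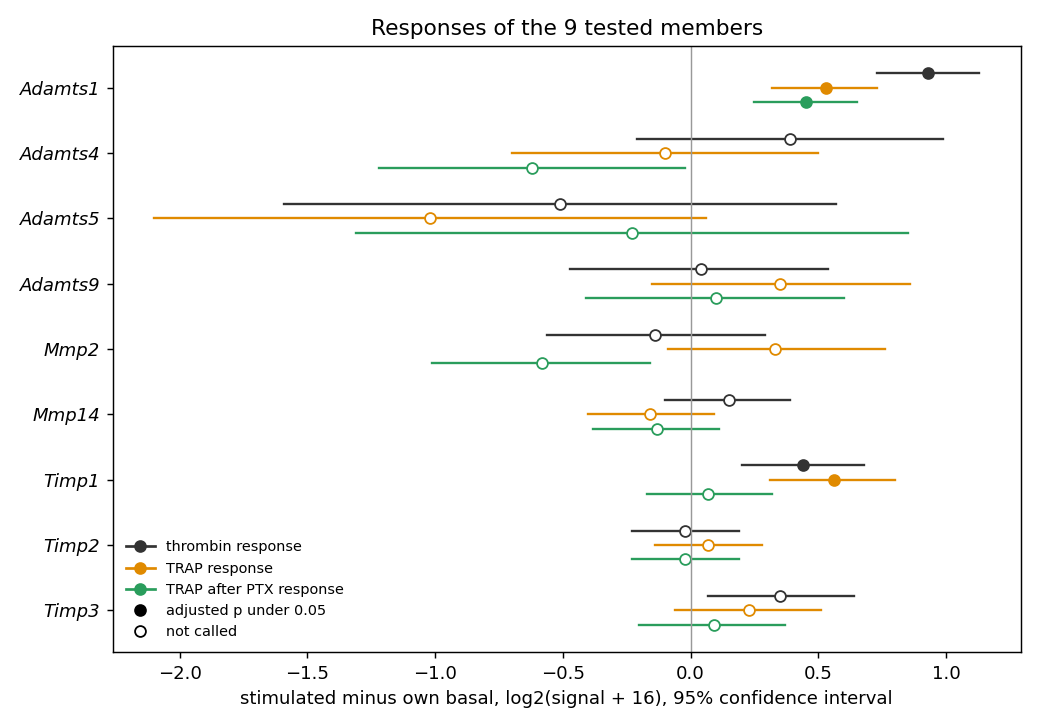
Change in log2(signal + 16) from the own basal arrays (x axis) for the 9 tested members, with 95% confidence intervals from limma, for thrombin, TRAP and TRAP after PTX. Filled points passed an adjusted p of 0.05. Adamts1 passed in all 3 responses and Timp1 in those to thrombin and TRAP, and the intervals of Adamts5 were the widest of the 9 members.

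Adamts1, a secreted protease that cuts versican and aggrecan, rose after all 3 stimuli. In the thrombin experiment its signal was 1071 and 995.1 on the basal arrays and 1878.3 and 2096.5 on the stimulated arrays. In the TRAP experiment it was 2897 and 2984.2 before and 4203 and 4279.2 after the peptide. In the PTX experiment it was 3101.4 and 3088.7 before and 4492.2 and 3975.3 after. In each experiment both stimulated arrays lay above both basal arrays, and the basal arrays of the TRAP experiments were already above the thrombin-stimulated arrays.

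The log2 change of Adamts1 was 0.93 ± 0.09 (SE) with thrombin, a 1.91-fold rise (limma adjusted p = 6.33e-05). With TRAP it was 0.53 ± 0.09 (adjusted p = 0.00622) and with TRAP after PTX 0.45 ± 0.09 (adjusted p = 0.0222). The mean of the 3 responses was 0.64 ± 0.05 (adjusted p = 5.37e-06), and this call and that after thrombin held in all 12 fits that left out 1 array. The TRAP call was lost without basal TRAP replicate 1 (0.50, adjusted p = 0.0759) or TRAP replicate 2 (0.51, adjusted p = 0.0509). The call after PTX was lost without either basal array (0.45 and 0.44, adjusted p = 0.0777 and 0.115) and without the first stimulated array (0.36, adjusted p = 0.186). Without the discordant arrays, the change was 0.54 with TRAP and 0.36 with TRAP after PTX, each from 1 stimulated array. In the blocked model it was 0.58 and 0.40 (adjusted p = 0.0061 and 0.0692). On the log2 scale the rise was larger with thrombin than with TRAP by 0.41 (95% confidence interval 0.12 to 0.69), which did not pass over all probe sets (adjusted p = 0.261). The basal levels differed, as mean signal went from 1033 to 1987 with thrombin and from 2941 to 4241 with TRAP. The response after PTX differed from that without it by -0.08 (95% interval -0.36 to 0.21, adjusted p = 0.93).

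The promoter of Adamts1 is shown because this gene and Timp1 were the members called after stimulation. It is the stretch from 250 bases before to 50 bases after the start of the gene, on the minus strand at chr11:38427335-38427634 of the rat build GRCr8, from RefSeq. Capitals mark a TATAAA match, which lies 70 to 65 bases before the start.
Adamts1: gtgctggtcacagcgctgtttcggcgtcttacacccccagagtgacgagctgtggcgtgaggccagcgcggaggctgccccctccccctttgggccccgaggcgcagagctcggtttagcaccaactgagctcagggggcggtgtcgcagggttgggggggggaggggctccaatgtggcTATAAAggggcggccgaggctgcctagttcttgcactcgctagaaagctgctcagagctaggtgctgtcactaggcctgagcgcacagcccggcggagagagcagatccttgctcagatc
The search covered both strands for TGANTCA, the AP-1 motif, found in 7.33% of 33469 promoters of this length. It also covered its variant TGAGTAA (2.9%), and the cyclic AMP response element TGACGTCA (1.83%). The others were TATAAA (14.2%) and the CArG box bound by serum response factor (1.64%). In this window TATAAA alone had a match.

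**Figure D2:**
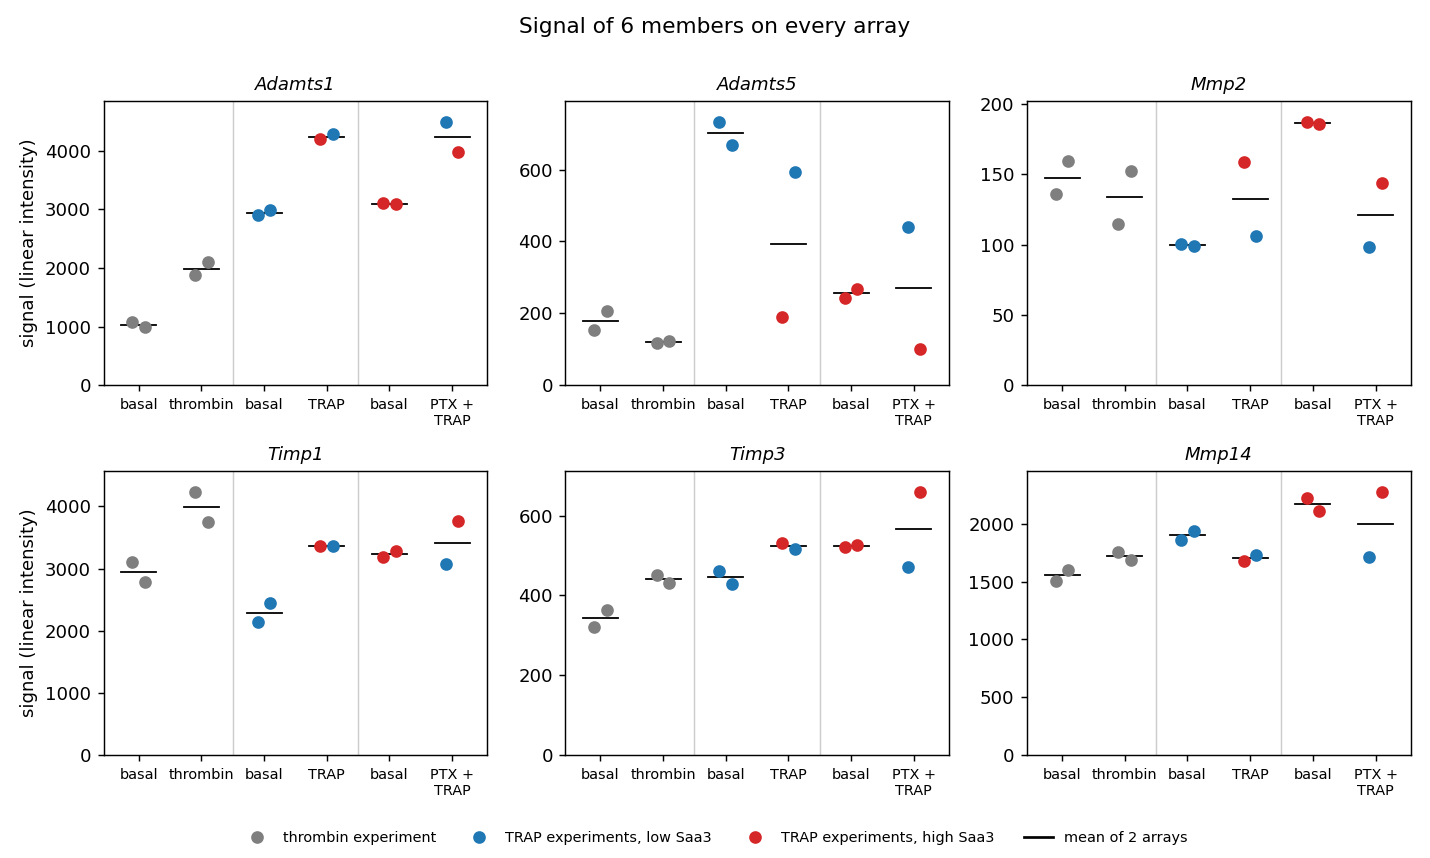
Signal (linear intensity, axis from 0) of 6 members on each of the 12 arrays, by group, with a line at the mean of 2 arrays. Grey points are the thrombin experiment, blue and red points the low-Saa3 and high-Saa3 arrays of the TRAP experiments. Adamts1 was above its own basal arrays in every stimulated group, while the stimulated arrays of Adamts5 and Mmp2 in the TRAP experiments separated by colour.

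Adamts5, a main aggrecan-cutting protease in mouse cartilage, passed the test in none of the responses, and its signal separated the sets of arrays. In the thrombin experiment its signal was 152.2 and 205.9 before and 116 and 122.8 after stimulation. In the TRAP experiment it was 732.7 and 668.7 before, and 189.2 on TRAP replicate 1 and 594.3 on TRAP replicate 2. In the PTX experiment it was 243.2 and 267.6 before, and 440.4 and 101.2 on TRAP after PTX replicates 1 and 2. The stimulated arrays lay below their basal arrays with thrombin and TRAP and on either side of them after PTX.

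The log2 changes of Adamts5 were -0.51 ± 0.50 (SE) with thrombin, -1.02 ± 0.50 with TRAP and -0.23 ± 0.50 with TRAP after PTX (limma adjusted p = 0.663, 0.34 and 0.859). Its low-Saa3 arrays were at 440.4 to 732.7 and its high-Saa3 arrays at 101.2 to 267.6. Within each set and in the thrombin experiment, every stimulated array was below both basal arrays, and the same held for the other, dimmer probe set of the gene, whose low-Saa3 arrays were at 204.9 to 328.1 and high-Saa3 arrays at 79 to 137.2. Without the discordant arrays, the change was -0.23 with TRAP and -1.21 with TRAP after PTX, each from 1 stimulated array. The mean of the 3 responses was then -0.65. With the sets as a block these 3 values were -0.13, -1.11 and -0.59 (adjusted p = 0.792, 0.00215 and 0.000399). The mean response was -0.91 without TRAP after PTX replicate 1 alone, which also leaves 1 stimulated array in that group. The difference between the responses with and without PTX changed sign, from 0.79 with all arrays (adjusted p = 0.85) to -0.98 without the discordant arrays. No direction is given for it. With all arrays the dimmer probe set measured -0.32, -1.13 and 0.17 in the 3 responses (adjusted p = 0.711, 0.106 and 0.856).

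Adamts4, another protease that cuts aggrecan, was dim and passed no test of a response. Its signal was 16.7 and 10.3 before and 28.7 and 17.1 after thrombin. It was 25.3 and 25.8 before TRAP and 30.8 and 16.2 after it, and 40.1 and 45.9 before and 14.5 and 31.9 after PTX and TRAP. The stimulated arrays overlapped the basal ones with TRAP only, while the high-Saa3 arrays (30.8 to 45.9) lay above the low-Saa3 arrays (14.5 to 25.8). The largest of its log2 changes was -0.62 ± 0.28 with TRAP after PTX (adjusted p = 0.273), or -0.30 without the discordant arrays (adjusted p = 0.745) and -0.33 in the blocked model (adjusted p = 0.603). Adamts9, a protease of the same family that also cuts versican and aggrecan, was at 21.5 to 42.6 over the 12 arrays. Its log2 changes lay between 0.04 and 0.35, with adjusted p from 0.51 to 0.957, and a further probe set was too dim to test.

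Among the matrix metalloproteinases no response passed the test. Mmp2 encodes gelatinase A, which degrades gelatin and the type IV collagen of basement membranes. Its signal was 135.8 and 159.2 before and 114.8 and 152.3 after thrombin, 100.4 and 99.3 before and 159 and 105.9 after TRAP, and 187.3 and 186 before and 98.4 and 143.8 after PTX and TRAP. The 4 low-Saa3 arrays were at 98.4 to 105.9 and the 4 high-Saa3 arrays at 143.8 to 187.3, so that the array sets did not overlap, whatever the stimulus.

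The log2 change of Mmp2 was 0.33 ± 0.20 with TRAP and -0.58 ± 0.20 with TRAP after PTX (limma adjusted p = 0.451 and 0.149). The difference between these responses was -0.92 ± 0.28 (adjusted p = 0.319). Without the discordant arrays, these were 0.07, -0.34 and -0.42 (adjusted p = 0.936, 0.49 and 0.889), and in the blocked model 0.08, -0.33 and -0.42 (adjusted p = 0.888, 0.355 and 0.811). The other Mmp2 probe set, at 2.6 to 32.6, was not tested.

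Mmp14, the membrane-anchored protease that activates the Mmp2 proenzyme, was at 1508.7 to 2281.9 over the 12 arrays. Its log2 changes were 0.15 ± 0.11 with thrombin, -0.16 ± 0.11 with TRAP and -0.13 ± 0.11 with TRAP after PTX (adjusted p = 0.565, 0.562 and 0.594). Its dimmer probe set moved by 0.29 with TRAP (adjusted p = 0.445), on the opposite side of 0 from the brighter one. Mmp3, stromelysin 1, was at 0.3 to 14.1 on all arrays. Its mean brightness was at percentile 18.1 of the probe sets, below the 40th percentile needed for the test, so no response is given for it.

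Timp1, an inhibitor of many matrix metalloproteinases, rose with thrombin and with TRAP. Its signal was 3102.4 and 2777.5 before and 4238.9 and 3753.9 after thrombin. It was 2144.5 and 2438.9 before and 3368.9 and 3370.3 after TRAP. In the PTX experiment it was 3179.5 and 3282.9 before, and 3076.7 and 3757.3 after TRAP. Stimulated and basal arrays were apart with thrombin and TRAP and overlapped after PTX.

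The log2 change of Timp1 was 0.44 ± 0.11 (SE) with thrombin, a 1.36-fold rise (limma adjusted p = 0.0407), and 0.56 ± 0.11 with TRAP, a 1.47-fold rise (adjusted p = 0.0132). It was 0.07 ± 0.11 with TRAP after PTX (adjusted p = 0.789). The thrombin call held without either stimulated array of the PTX experiment and was lost without any one of the other 10 arrays (0.35 to 0.53, adjusted p = 0.0503 to 0.281). The TRAP call was lost without basal TRAP replicate 1 (0.46, adjusted p = 0.166), TRAP replicate 1 (0.56, adjusted p = 0.067) or TRAP replicate 2 (0.56, adjusted p = 0.0777). Without the discordant arrays, it was 0.56 with TRAP (adjusted p = 0.0531) and 0.22 with TRAP after PTX (adjusted p = 0.546). In the blocked model these were 0.48, which kept the TRAP call (adjusted p = 0.044), and 0.14 (adjusted p = 0.616). The mean of the 3 responses, 0.36 ± 0.07 (adjusted p = 0.00269), passed in all 12 fits that left out 1 array. The response after PTX was lower than that without it by a difference of -0.48 (95% interval -0.83 to -0.14), which did not pass over all probe sets (adjusted p = 0.381) and was -0.34 both without the discordant arrays and in the blocked model (adjusted p = 0.837 and 0.77).

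The promoter of Timp1 lies on the minus strand at chrX:3771073-3771372 (GRCr8, RefSeq), over the same span around the start.
Timp1: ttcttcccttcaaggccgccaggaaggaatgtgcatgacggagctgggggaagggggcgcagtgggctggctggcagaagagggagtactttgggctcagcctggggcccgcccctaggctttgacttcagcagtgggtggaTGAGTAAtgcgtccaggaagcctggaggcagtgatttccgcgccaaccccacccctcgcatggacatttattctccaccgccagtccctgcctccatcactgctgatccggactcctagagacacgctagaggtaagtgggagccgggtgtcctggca
Capitals mark TGAGTAA, the variant AP-1 motif, 108 to 102 bases before the start. It was the only match of the motifs searched in this window. A promoter was found for 7 of the 10 members. Besides Adamts1 and Timp1, that of Mmp3 held matches, for both AP-1 motifs and for TATAAA, and the promoters of Adamts4, Adamts9, Timp2 and Timp3 held none.

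Timp3, an inhibitor that binds to the matrix and also blocks ADAMTS proteases, passed no test of a response, though both stimulated arrays lay above both basal arrays with thrombin and with TRAP. Its signal was 321.1 and 364.3 before and 451.4 and 429.8 after thrombin. It was 461.1 and 428.9 before and 530.4 and 515.7 after TRAP, and 522.2 and 527 before and 472.3 and 660.2 after PTX and TRAP. The log2 changes were 0.35 ± 0.13, 0.23 ± 0.13 and 0.09 ± 0.13 (adjusted p = 0.171, 0.442 and 0.784). The mean response of 0.22 ± 0.08 missed the threshold (adjusted p = 0.0743). It passed with the sets as a block (0.22, adjusted p = 0.0382) and with each array centred on its median (0.28, adjusted p = 0.0278). It was 0.29 without the discordant arrays and 0.30 without TRAP after PTX replicate 1 alone, where 1 stimulated array is left in a group. The other 3 tested probe sets of Timp3 had mean responses of 0.16, 0.09 and 0.33 (adjusted p = 0.282, 0.688 and 0.368).

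Timp2, an inhibitor that also takes part in the activation of Mmp2, varied little. Its signal was 4906.1 and 4687.4 before and 4952.7 and 4507.2 after thrombin, 4963.8 and 5518.7 before and 5358 and 5647.4 after TRAP, and 5994.7 and 5441 before and 5619 and 5632.9 after PTX and TRAP. Basal and stimulated arrays overlapped in all 3 experiments. The log2 changes were -0.02 (95% interval -0.23 to 0.19), 0.07 (-0.14 to 0.28) and -0.02 (-0.23 to 0.19), with adjusted p from 0.794 to 0.94.

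Stimulated arrays were also set against the basal arrays of the same set, a description made after the values were seen and with no test. All 6 stimulated arrays lay above the basal arrays of their own set or of the thrombin experiment in 3 of 9 members, Adamts1, Timp1 and Timp3, where 4.1% of tested probe sets did so. They lay below in 1 member, Adamts5, where 6.82% did so. In Timp3 the second brightest probe set did not follow, because TRAP replicate 1 at 523.5 was below both high-Saa3 basal arrays, and its other 2 tested probe sets were mixed too. Here the discordant arrays were each set against the basal arrays of the other TRAP experiment. The 4 low-Saa3 and the 4 high-Saa3 arrays did not overlap in 4 of 9 members (Adamts4, Adamts5, Mmp2 and Timp3), against 7.12% of all tested probe sets.

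**Figure D3:**
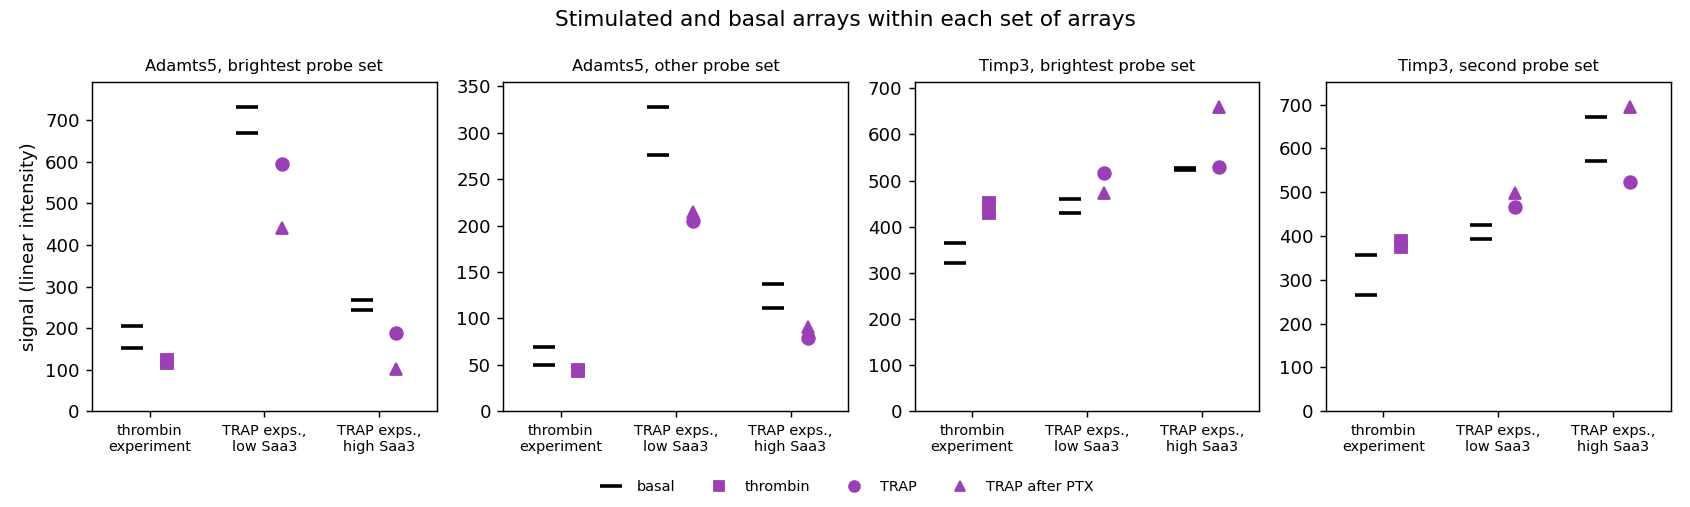
Signal (linear intensity, axis from 0) of both Adamts5 probe sets and of the 2 brightest Timp3 probe sets, with basal arrays as bars and stimulated arrays as symbols, in the thrombin experiment, the low-Saa3 and the high-Saa3 arrays. The stimulated arrays of Adamts5 lay below the basal arrays in all 3 columns for both probe sets, and those of Timp3 lay above them for the brightest probe set only.

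The unstimulated levels differed between experiments in 7 of the 9 tested members, where 42.2% of all tested probe sets were called in the F test among the 3 basal groups. Adamts1 was at 1033 ± 53.7 (SD, n = 2) in the thrombin experiment, 2941 ± 61.7 in the TRAP experiment and 3095 ± 8.98 in the PTX experiment, a range of 1.57 on the log2 scale (limma adjusted p = 3.74e-08). Adamts5 was highest in the TRAP experiment, at 700.7 ± 45.3, against 255.4 ± 17.3 in the PTX experiment and 179 ± 38 in the thrombin experiment, a range of 1.89 (adjusted p = 0.0183).

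Mmp2 and Timp1 were lowest in the basal cells of the TRAP experiment and highest in those of the PTX experiment, with ranges of 0.81 and 0.50 (adjusted p = 0.0141 and 0.00729). Adamts4, Mmp14 and Timp3 were lowest in the thrombin experiment and highest in the PTX experiment, with ranges of 1.01, 0.48 and 0.59 (adjusted p = 0.0285, 0.0119 and 0.00746). The dimmer probe set of Mmp14 had the same order but did not pass (range 0.46, adjusted p = 0.0624). That of Adamts5 passed in the order of its brighter one (range 2.08, adjusted p = 0.00117). Of the other 3 probe sets of Timp3, 1 passed in the order of the brightest (range 0.97, adjusted p = 0.000825). Another had a range of 0.16 (adjusted p = 0.762), and 1 was highest in the thrombin experiment and lowest in the PTX experiment without passing (adjusted p = 0.128). Adamts9 and Timp2 did not pass (adjusted p = 0.644 and 0.118), nor did the dimmer probe set of Timp2 (adjusted p = 0.0527). In such bulk RNA, fewer cells of a type and less RNA per cell cannot be told apart. The summed signal of the smooth muscle markers was 9845 to 10322.1 on the basal arrays of the thrombin experiment and 15298.9 to 17865.2 on those of the TRAP experiments. That of 7 fibroblast markers was 5459.4 to 5877.1 and 7480.9 to 8314.7. Sums of leukocyte markers went the other way, at 569.2 to 672.7 against 361.4 to 439.3. So did those of Schwann and neural markers, at 476.9 to 569.3 against 237.9 to 403.6. Endothelial sums overlapped, at 82.5 to 114.8 against 50.8 to 95.5. The proliferation gene Mki67 was at 257.5 to 333.9, 925.7 to 1095.7 and 515.4 to 607.5 in the basal cells of the thrombin, TRAP and PTX experiments. The part of these differences in the levels of the members was not tested.

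The basal call of Adamts1 held without any 1 array. That of Adamts4 was lost without either basal array of the thrombin or the PTX experiment, that of Adamts5 without basal thrombin replicate 1 or either basal TRAP array, and that of Mmp2 without either basal TRAP array. Those of Mmp14 and Timp3 were lost without basal thrombin replicate 1, and that of Timp1 without basal TRAP replicate 1. The count of 7 was thus lower without any 1 of the arrays named. The blocked model gave 5, where 39.3% of all tested probe sets were called, against 42.2% without the block. It lost Adamts4 and Mmp14 (limma adjusted p = 0.226 and 0.0822). Each basal TRAP group lies in a single set, so the stimulated arrays alone set the size of the block. Adamts4 was also lost without the filter on dim probe sets and with quantile normalization (adjusted p = 0.0541 and 0.0529), and Adamts5 without the intensity trend (adjusted p = 0.0551).

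**Figure D4:**
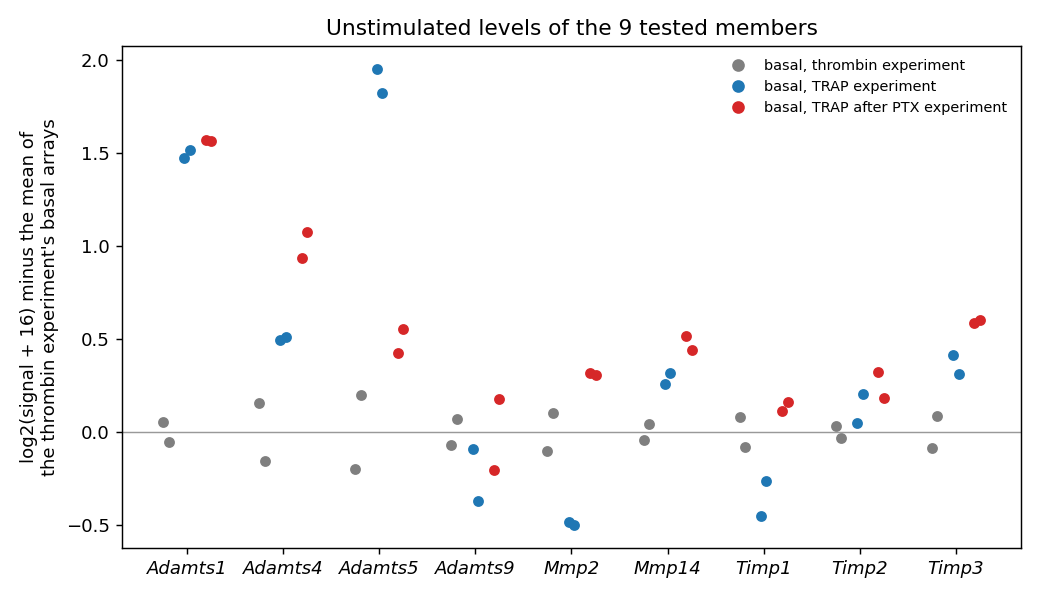
Unstimulated level of the 9 tested members on each basal array, as log2(signal + 16) minus the mean of the 2 basal arrays of the thrombin experiment (y axis, log2 units). Adamts1 was about equally high in both TRAP experiments, and Adamts5 was highest in the TRAP experiment alone.

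Of 40 further genes of the Mmp, Adamts, Timp and Adam families, 29 were on the array with a probe set of a single symbol and 16 could be tested. With thrombin 1 of 16 rose and 0 fell, where 4.74% of all tested probe sets were called (2.63% higher). With TRAP and with TRAP after PTX 0 of 16 passed, where 3.9% and 2.71% of all were called. Counts this small are near those shares and are not read as a result about the list. Adam19, a membrane-anchored metalloproteinase, rose from 167.7 and 186.9 to 246.5 and 251.1 with thrombin, by 0.46 ± 0.11 on the log2 scale (limma adjusted p = 0.0251). Its changes with TRAP and with TRAP after PTX were 0.23 and -0.05 (adjusted p = 0.302 and 0.851). Mmp11, stromelysin 3, was below its basal arrays on all 6 stimulated arrays. It measured 127.6 and 132.3 before and 97.2 and 102.4 after thrombin, 79.6 and 91.2 before and 64.1 and 65.7 after TRAP, and 95.6 and 114.5 before and 62.5 and 65.3 after PTX and TRAP. It fell by 0.42 ± 0.09 in the mean of the 3 responses (adjusted p = 0.0057), and its single responses did not pass (adjusted p from 0.0504 to 0.297). Adam19 rose in that mean by 0.21 ± 0.06 (adjusted p = 0.0363). Thus 1 of 16 rose and 1 fell there, where 5.55% of all were called higher and 7.62% lower.

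Of 27 substrates and regulators of these enzymes 20 could be tested, and 0 rose with thrombin, 1 with TRAP and 1 with TRAP after PTX, while 0 fell. Over all probe sets 2.63%, 1.84% and 1.68% were called higher, so the counts of this list are near those shares. The gene called with TRAP and with TRAP after PTX was Sdc4, which encodes syndecan-4, a heparan sulphate proteoglycan of the cell surface. Its signal was 1992.4 and 2079.2 before and 3772.3 and 4525.6 after TRAP, and 2225.7 and 2281.3 before and 4125.3 and 4253.5 after PTX and TRAP. The rises were 1.02 ± 0.11 and 0.89 ± 0.11 on the log2 scale (limma adjusted p = 0.000177 and 0.000653). In the mean of the 3 responses Sdc4 rose by 0.77 ± 0.06 (adjusted p = 5.18e-06), as the 1 gene of 20 called. With thrombin it went from 4661.5 and 3975.8 to 6124.3 and 5290.2, a change of 0.40 ± 0.11 (adjusted p = 0.0599), and the difference between the thrombin and TRAP responses did not pass (-0.61, adjusted p = 0.133). The membrane-anchored inhibitor Reck changed by 0.06, 0.04 and -0.02 in the 3 responses.

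The genes whose signal was most like that of a member over the 12 arrays were found as a description. This was done for the 3 members with the largest mean response in either direction, which for Adamts5 was a fall that was not called. The arrays share experiments and sets, which carry much of such likeness, and no test is given. For Adamts1 they were Rgs16 (Pearson correlation 0.992), Esm1 (0.99) and Lrrfip1 (0.988). For Adamts5 they were Dek (0.975), Prim1 (0.968) and Lin54 (0.956), and for Timp1 Sec16a (0.891), Ier3 (0.88) and Nfkbia (0.879).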

How the data were processed

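Biotin-labelled RNA of 12 samples was measured on 1-colour Affymetrix arrays. The authors deposited linear intensity from GCOS 1.4, per the submitters' processing notes. The genome build is not given in the sources used here. Tests used log2 of the deposited signal plus 16 over 18625 probe sets, after removal of 57 controls and of those up to the 40th percentile in mean. Probe sets were named from the array annotation (20826 with 1 symbol, 436 with several, 9780 with none). The groups given by the labels shared 1 fit in R 4.3.3 with limma 3.58.1 (lmFit and eBayes with an intensity trend, 6 residual degrees of freedom, tests 2-sided), with each stimulated group set against its own basal group. The fits were also run on simulated data without array sets or differences between basal groups. That run cannot show how these features affect the calls. With 2 arrays per group the number of arrays limits the precision, and the median SE of the thrombin response was 0.16. All members were described, with further genes of 2 lists where called. The members, lists and tests were chosen with earlier results of these data known. Detection calls were not used here. Promoter sequences and motif matches are from RefSeq's GRCr8 and bear on no test. Alternatives were other pseudocounts (1 and 64), filters, scalings, controls and blocks, no intensity trend, and each array left out.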

Additional observations from a re-analysis of the deposited data

How the results depend on the processing

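Of the members' calls, one turned direction: with all 6 basal arrays as the control, the thrombin response of Adamts1 was -0.09 and not called, since the basal arrays of the TRAP experiments were higher than the thrombin-stimulated arrays. With that control the probe sets called were 542 with thrombin, 73 with TRAP, 62 with TRAP after PTX and 496 in the mean response, and 0 members were called in each. Fitting only the groups compared gave 576 with thrombin, 260 with TRAP after PTX and 1 for the PTX effect, with 1 member called with thrombin and 0 with TRAP after PTX. Without the intensity trend there were 334 with TRAP after PTX, 23 for thrombin against TRAP and 0 for the PTX effect, with 1 member called with thrombin, 1 with TRAP and 0 with TRAP after PTX. Without the filter on dim probe sets the PTX effect had 13 and thrombin 1 member. Without the discordant arrays there were 166 with TRAP after PTX and 9 for the PTX effect, with 1 member called with TRAP and 4 in the mean response, as many as with the sets as a block (4). Quantile normalization left 0 members with TRAP after PTX, where Adamts1 measured 0.34 (adjusted p = 0.057). The mean response already uses all groups, so fitting only the groups compared was not run for it. Beyond what an alternative's construction shows, the cause was not tested.

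Centring the arrays on their medians gave a split of higher and lower calls of 608 and 261 with thrombin (490 and 392 as deposited), 434 and 263 with TRAP (342 and 385), 412 and 127 with TRAP after PTX (313 and 192), and 1456 and 794 in the mean response (1034 and 1419). Quantile normalization gave 477 and 263 with thrombin, 391 and 321 with TRAP, 375 and 172 with TRAP after PTX, and 1140 and 1032 in the mean response. With TRAP and in the mean response, both scalings turned the balance from more lower calls to more higher calls.

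With 1 array left out, the calls ran from 342 to 918 with thrombin, 208 to 759 with TRAP, 149 to 539 with TRAP after PTX, 1628 to 2354 in the mean response, 33 to 140 for thrombin against TRAP, 0 to 47 for the PTX effect and 5878 to 7825 among the basal groups. The members called ran from 1 to 2, 0 to 2, 0 to 1, 2 to 4, 0 to 0, 0 to 0 and 3 to 7 in the same order. Lone arrays were taken to have the spread of the other groups. The lowest counts came without thrombin replicate 1, basal TRAP replicate 1 and TRAP after PTX replicate 1 for the responses to thrombin, TRAP and TRAP after PTX, and the calls with thrombin also fell to 409 without basal thrombin replicate 1 and to 357 without thrombin replicate 2. Those with TRAP were 246, 348 and 442 without basal TRAP replicate 2, TRAP replicate 2 and TRAP replicate 1, and those with TRAP after PTX 191 and 292 without basal replicate 2 and TRAP after PTX replicate 2.

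Arrays with the same replicate number deviated from their group means with correlations of 0.134, 0.104 and 0.0217 in the thrombin, TRAP and PTX experiments. In the TRAP and PTX experiments the stimulated arrays lay in different sets, so a low correlation there cannot show that pairing is absent. The numbers were not taken to pair the samples. The replicate block gave 715 calls with thrombin, 603 with TRAP and 374 with TRAP after PTX. It left 1 member with thrombin, Adamts1, with Timp1 at 0.44 (adjusted p = 0.0648), and changed no other call of a member in a response.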

Other observations

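Of the 20 tested substrates and regulators, 13 differed between the unstimulated cells of the experiments, where 42.2% of all probe sets did. Among these 13, 9 were lowest and 4 highest in the thrombin experiment. The other 7 did not pass, among them the matrix genes Fn1, Sparc and Lamc1 (limma adjusted p = 0.393, 0.727 and 0.624), and Nid1 passed with its highest level in the thrombin experiment (adjusted p = 0.0307). The 4 genes that follow were picked after their values were seen, as 4 of those lowest in the thrombin experiment. Acan, which encodes aggrecan, a substrate of Adamts4 and Adamts5, had signals of 61.7 and 64.2 on the basal arrays of the thrombin experiment, 1879 and 1842.2 on those of the TRAP experiment, and 1530 and 1637 on those of the PTX experiment (limma adjusted p = 5.09e-08 in the F test). Vcan, which encodes versican, a substrate of Adamts1, was at 63.9 and 61.9, 515.2 and 470.3, and 383 and 378.5 (adjusted p = 6.11e-08). Tnc, the matrix glycoprotein tenascin-C, was at 718.4 and 725.3, 4809 and 4542.8, and 7468 and 6802.2 (adjusted p = 2.89e-08). Dcn, the small proteoglycan decorin, was at 783.7 and 655.4, 2423.5 and 2275.9, and 2422.2 and 2224.6 (adjusted p = 4.7e-08). The mean responses to stimulation were 0.17 for Acan, 0.11 for Vcan, 0.29 for Tnc and -0.13 for Dcn on the log2 scale, and none passed the test (adjusted p = 0.546, 0.485, 0.0824 and 0.19). That of Acan averages opposite moves. On the low-Saa3 arrays Acan was at 1879 and 1842.2 before and 2564.1 and 2583.8 after stimulation. The high-Saa3 arrays were at 1530 and 1637 before and 1227.4 and 1400.9 after.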
